A study of Mus musculus with 2 samples.

Results

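Of the 9 erythroid genes and embryonic globins examined here, none differed between Gata2cKO and control ureters by an adjusted p under 0.05, which 0.0877% of all genes tested did by limma. Of the 9, 7 had a lower level in the Gata2cKO RNA than in the control RNA on both arrays after normalization, as did 26.2% of all genes. The embryonic beta-like globin gene Hbb-bh1 was 1.26-fold lower and the embryonic alpha-like globin gene Hba-x 1.28-fold lower, and neither passed the test (limma adjusted p = 0.560 and 0.638). The other embryonic beta-like globin gene, Hbb-y, was 1.91-fold higher in Gata2cKO on array 1 and had 0.361 times the control level on array 2, so its 2 arrays gave opposite directions. Hemgn was 1.14-fold higher on average, through a probe that consists mostly of a dinucleotide repeat.

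The set holds Hbb-bh1, Hbb-y, Hba-x, Hemgn, Alas2, Klf1, Epor, Slc4a1 and Ahsp, and its members were taken as every non-control probe whose gene name in the scanner files is one of these. All 9 were found, through 10 probes among the 39429 on the array, which stand for 31870 gene names. Hbb-y had 2 probes and each other member had 1. Every one of the 10 probes was well above background in both RNAs of both arrays, so all 9 genes passed the filter on dim probes and were among the 20521 genes tested. Most of these genes are made in red cells and their precursors, so the set serves as a measure of the blood that a dissected ureter contains.

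The ureters came from E14.5 embryos of NMRI mice and were compared on 2 dye-swapped 2-colour Agilent arrays, each with 1 Gata2cKO RNA and 1 control RNA. The Gata2cKO embryos were Tbx18(cre/+);Gata2(fl/fl), with a Cre recombinase made from one Tbx18 allele, which acts in the mesenchyme that surrounds the ureter, and both Gata2 alleles flanked by loxP sites. The control embryos were Tbx18(+/+);Gata2(fl/?), without Cre, with at least 1 floxed Gata2 allele and a second allele that the label does not name. On array 1 both RNAs were female, with Gata2cKO in Alexa Fluor 647 and control in Alexa Fluor 555, and on array 2 both were male, with Gata2cKO in 555 and control in 647. Sex and dye orientation therefore cannot be told apart, and neither can the loss of Gata2 from the presence of Cre or the loss of one Tbx18 allele. How many embryos gave each RNA is not stated in the labels. The p-values rest on these 2 arrays. For each gene limma combined the spread between them (1 degree of freedom) with a prior from all genes (4.68), which weighed more. In whole tissue, fewer red blood cells and less RNA per cell cannot be told apart.

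Red blood cells of the embryo arise in waves. The first, primitive wave comes from the yolk sac and fills its cells with embryonic haemoglobins, and a definitive wave from the fetal liver follows with adult globins and enters the circulation around the stage studied here. The red cells of both waves still carry globin mRNA when they circulate, so RNA of a dissected organ holds red cell transcripts in proportion to the blood left in it. Gata2 acts in blood stem cells and early progenitors and gives way to Gata1 as red cells mature, and the Cre used here is made from Tbx18, a gene of the ureteric mesenchyme.

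The median spot signal was 754 and 428 in Gata2cKO against 433 and 754 in control on arrays 1 and 2, so the 647 channel was the brighter one each time. In each channel 66.0% to 69.4% of the probes' spots stood well above background, and 0 spots were saturated. Over all genes, 18 of 20521 passed the adjusted threshold by limma, and 1471 (7.17%) had an unadjusted p under 0.05. The probe for Gata2 itself gave log2 ratios of 0.33 and 0.54 (mean 0.44, limma adjusted p = 0.410). Which part of Gata2 the Cre removes is not labelled, and a probe outside it checks nothing about the genotype. Markers of ureteric mesenchyme (8 of 8 genes) and urothelium (10 of 10) were kept by the filter.

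Probe sequences are shown for the members on which the results turn, since each gene is read through one or a few stretches of 60 bases. The 3 probes below lie in stretches with 1 reading frame free of stop codons and are given whole, in lower case, with mm9 coordinates from the scanner files. The brighter Hbb-y probe lies at chr7:111000448-111000507 on the minus strand, the Hba-x probe at chr11:32177668-32177727 on the plus strand, and the probe of the adult alpha globin gene Hba-a1, which is not a member and is shown for comparison, at chr11:32183955-32184014 on the plus strand.
Hbb-y, brighter probe: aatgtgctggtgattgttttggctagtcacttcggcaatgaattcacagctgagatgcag
Hba-x: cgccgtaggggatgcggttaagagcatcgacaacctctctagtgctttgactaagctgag
Hba-a1: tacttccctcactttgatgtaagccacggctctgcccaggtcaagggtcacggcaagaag
The dimmer Hbb-y probe lies nearer the end of the transcript, at chr7:111000268-111000327 on the minus strand, and holds an AATAAA polyadenylation signal, set in capitals in the 30 bases around it. The Hemgn probe lies at chr4:46407248-46407307 on the minus strand, and the 30 bases shown for it give the edge of a run of alternating G and T, in capitals, that goes on for 36 bases to the end of the probe.
Hbb-y, dimmer probe, 30 bases: cacatcatgtttAATAAAgatcatccttcc
Hemgn, 30 bases: acatagacaataGTGTGTGTGTGTGTGTGT
The other probes are named by position alone. They lie at chr7:110990209-110990268 (Hbb-bh1, minus), chrX:147004993-147005052 (Alas2, plus), chr8:87428881-87428940 (Klf1, plus), chr9:21763422-21763481 (Epor, minus) and chr11:102210256-102210315 (Slc4a1, minus), and the file gives no position for the Ahsp probe. The GC content of the 10 member probes ran from 36.7% to 53.3%, around the median of 41.7% over all probes. Exons were not assigned, as no gene annotation of mm9 was used.

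The normalized levels given next are log2 intensities of each RNA's own channel, on a scale made common to the 4 channels, and they compare one probe between RNAs. They do not rank genes against each other, since probes differ in how brightly they label.

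**Figure D1:**
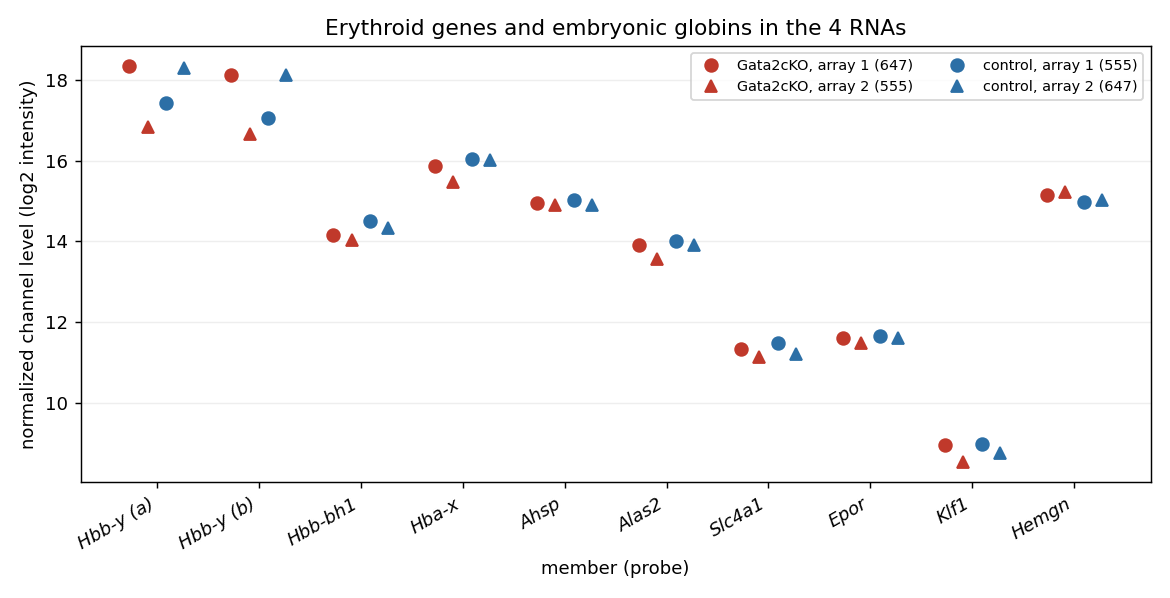
Normalized channel level (log2 intensity, vertical axis) of each member probe (horizontal axis, with a and b for the brighter and dimmer Hbb-y probe) in the 2 Gata2cKO RNAs (red) and the 2 control RNAs (blue), with circles for array 1 and triangles for array 2. The Hbb-y points split by dye, with both 647 channels above both 555 channels, and no other member splits in this way.

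Embryonic globins were read through 4 probes. Hbb-bh1, which encodes a beta-like chain of embryonic haemoglobin, had levels of 14.16 and 14.03 in the Gata2cKO RNAs of arrays 1 and 2, against 14.51 and 14.33 in the control RNAs. Both Gata2cKO levels lay below both control levels. The log2 ratios were -0.35 on array 1 and -0.31 on array 2, with a mean of -0.33 ± 0.0323 (SD, n = 2; limma adjusted p = 0.560). The 95% interval of limma ran from 0.664 to 0.954 times control before any correction for the number of genes.

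Hba-x, which encodes the zeta chain, the embryonic counterpart of alpha globin, had levels of 15.87 and 15.48 in Gata2cKO, against 16.05 and 16.01 in control. Here too the groups did not overlap, and the Gata2cKO RNA of array 2 was the lowest of the 4. The log2 ratios were -0.18 and -0.53, with a mean of -0.35 ± 0.247 (SD, n = 2; limma adjusted p = 0.638) and an interval from 0.629 to 0.975 times control.

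Hbb-y encodes the epsilon y chain, the other beta-like chain of mouse embryonic haemoglobins. The mean spot signal of its brighter probe was 570797 and 69192 in Gata2cKO, against 109982 and 554247 in control, on arrays 1 and 2. The 2 high values were the 2 channels labelled with 647, whatever the genotype. The log2 ratios were 0.93 and -1.47, with a mean of -0.27 ± 1.70 (SD, n = 2; limma adjusted p = 0.975) and an interval from 0.342 to 2.01 times control. The dimmer probe gave 1.07 and -1.46, with a mean of -0.20 ± 1.79 (SD, n = 2; limma adjusted p = 0.989 in a fit over all probes). Both probes thus read higher in Gata2cKO on array 1 and lower on array 2, and the data set no direction for this gene.

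Genes for haemoglobin assembly and haem followed. Ahsp encodes the chaperone that binds free alpha globin, and its levels were 14.96 and 14.90 in Gata2cKO, against 15.03 and 14.91 in control. The groups overlapped, and the log2 ratios of -0.067 and -0.0071 averaged -0.037 ± 0.0424 (SD, n = 2; limma adjusted p = 0.989). Its interval, from 0.813 to 1.17 times control, was centred close to no difference. Alas2 encodes the erythroid enzyme that starts haem synthesis. Its levels were 13.92 and 13.56 in Gata2cKO, against 14.01 and 13.90 in control, with log2 ratios of -0.094 and -0.34 and a mean of -0.22 ± 0.173 (SD, n = 2; limma adjusted p = 0.784). The Gata2cKO RNA of array 1 lay within the range of the control RNAs, and that of array 2 lay below it.

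Proteins of the red cell surface came next. Slc4a1, the gene of the anion exchanger band 3, which is abundant in the red cell membrane, had levels of 11.34 and 11.14 in Gata2cKO, against 11.48 and 11.21 in control. Its log2 ratios of -0.14 and -0.079 averaged -0.11 ± 0.0427 (SD, n = 2; limma adjusted p = 0.913). Epor, the gene of the erythropoietin receptor, which red cell progenitors and some other cells carry, had levels of 11.61 and 11.47 in Gata2cKO, against 11.65 and 11.60 in control. Its log2 ratios of -0.046 and -0.13 averaged -0.086 ± 0.0573 (SD, n = 2; limma adjusted p = 0.946). The groups overlapped for both genes.

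Klf1 encodes the transcription factor that drives red cell genes, adult beta globin among them. It was the dimmest member, with 79.5% of the genes tested brighter than its probe, and its levels were 8.94 and 8.52 in Gata2cKO, against 8.97 and 8.75 in control. Its log2 ratios were -0.031 and -0.23, with a mean of -0.13 ± 0.142 (SD, n = 2; limma adjusted p = 0.891). The groups overlapped, and the interval ran from 0.752 to 1.11 times control.

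Hemgn encodes hemogen, a nuclear protein of blood progenitors and red cell precursors, and was the 1 member higher in Gata2cKO on both arrays. Its levels were 15.16 and 15.23 in Gata2cKO, against 14.98 and 15.04 in control, without overlap, and its log2 ratios of 0.19 and 0.20 averaged 0.19 ± 0.00744 (SD, n = 2; limma adjusted p = 0.788). The repeat shown above is not particular to this probe. Among the 39429 probes, 30 held at least 28 bases of alternating G and T, and the 29 others, assigned to 29 other names, were all higher in Gata2cKO on both arrays, with mean log2 ratios from 0.15 to 0.25 and a median of 0.20. The Hemgn value lay inside that range. The repeat was found after the values of Hemgn had been seen, and no probe of Hemgn without it was on the array, so whether the signal came from Hemgn RNA was not tested.

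**Figure D2:**
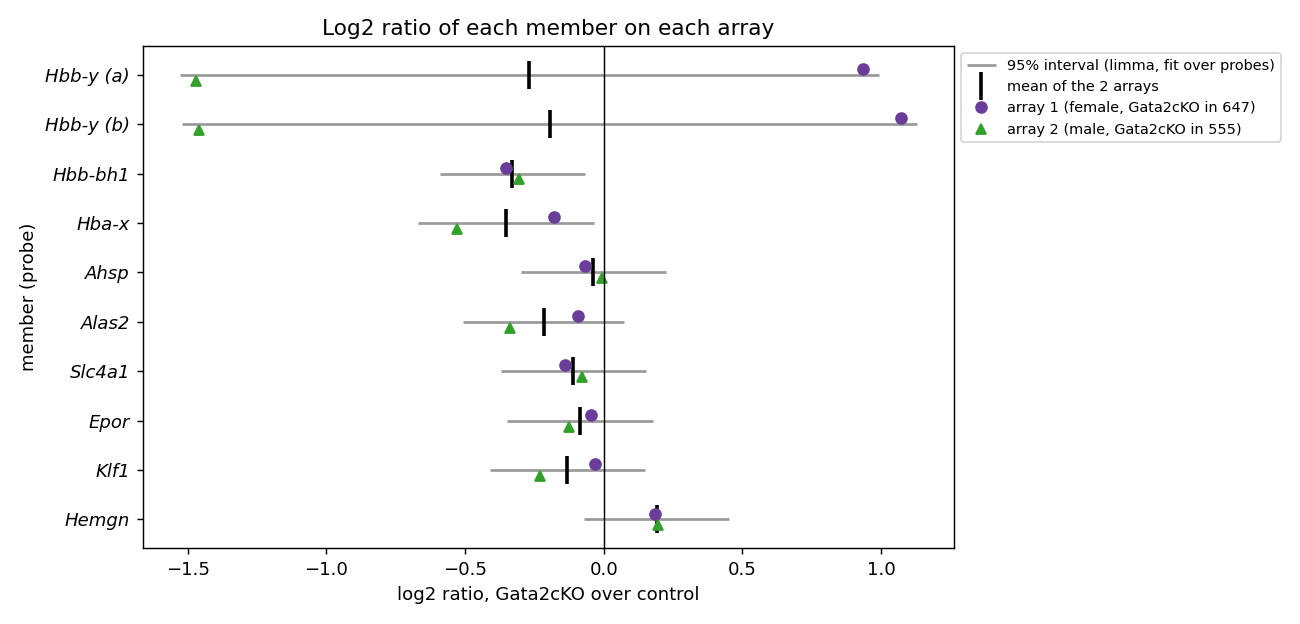
Log2 ratio of Gata2cKO over control (horizontal axis) for each member probe (vertical axis), with circles for array 1, triangles for array 2, bars for their mean and lines for the 95% interval of the limma fit over all probes. Hbb-y spans -1.47 to 0.93 through its brighter probe, while the other members lie between -0.53 and 0.20.

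Across the 9 members, 7 were lower in Gata2cKO on both arrays, 1 was higher on both and 1 had opposite signs. Over all genes 27% were higher on both arrays, and in the brightest 25% of genes, in which Hbb-bh1, Hba-x, Hbb-y, Hemgn, Alas2 and Ahsp lay, 20.4% were lower on both. The median log2 ratio of the 9 members was -0.13, with -0.067 on array 1 and -0.23 on array 2, beside 0.00282 over all genes tested. None of the 9 reached 1.5-fold in the same direction on both arrays, which 0.712% of all genes did. At an unadjusted p under 0.05 by limma there were 2 members, Hbb-bh1 and Hba-x, beside 7.17% of all genes, and 0 at the adjusted threshold. The exact test that turns the sign of each array cannot go below a two-sided p of 0.5 with 2 arrays. These members were chosen together as genes of one cell type and rest on the same 4 RNAs, so their directions are not independent of each other.

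The lowest of the 4 levels mostly belonged to the same RNA, which does not place the lower ratios on one array. The ratios of Hbb-bh1, Slc4a1 and Ahsp were lower on array 1 than on array 2. For Alas2, Klf1, Epor, Slc4a1 and Ahsp the control RNA of array 2 also lay below both RNAs of array 1. In 8 of the 9 members the Gata2cKO RNA of array 2 was the lowest of the 4, as it was for 27.8% of all genes, and Hemgn was the exception. That RNA was labelled with 555, and the part of the dye in this count was not tested. Both Gata2cKO RNAs lay below both control RNAs for 2 members, Hbb-bh1 and Hba-x, and above both for 1, Hemgn, beside 18.9% and 19.5% of all genes.

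Comparing RNAs that carried the same dye sets Gata2cKO of one array, and sex, against control of the other. In 647, Hbb-y differed by 0.044 on the log2 scale between Gata2cKO and control through its brighter probe, and in 555 by -0.58. Hbb-bh1 differed by -0.17 in 647 and -0.48 in 555, and Hba-x by -0.14 and -0.57. Alas2 (0.021 in 647 and -0.45 in 555), Klf1 (0.19 and -0.45), Slc4a1 (0.13 and -0.35), Epor (0.0053 and -0.18) and Ahsp (0.053 and -0.13) were above control in 647 and below it in 555. Hbb-bh1 and Hba-x were thus below control in both dyes, and Hemgn was above it in both (0.12 and 0.26). The dimmer Hbb-y probe was level with control in 647 (-0.0013) and below it in 555 (-0.39). The part of sex and array in these values was not tested.

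Adult globins made the same picture as Hbb-y. Of 5 genes listed 4 were on the array, and each was brighter in the 647 channel on both arrays. Hba-a1 had log2 ratios of 0.86 and -1.04, and Hba-a2, its near copy, had 1.05 and -1.09. Hbb-bt, named Hbb-b1 in the files, had 1.37 and -1.12, and Hbb-b2 had 0.68 and -0.29. These copies differ by few bases in their coding parts, so their probes can share RNA. The mean was -0.090 for Hba-a1, -0.018 for Hba-a2, 0.12 for Hbb-bt and 0.20 for Hbb-b2, with none past the test (lowest limma adjusted p = 0.942), and the mean level of the 4 was 18.19 and 17.31 in Gata2cKO, against 17.20 and 18.19 in control. The rule for naming genes admitted no adult globin, since all 4 had opposite signs, and they were named after their values were seen.

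Opposite signs of that size were not particular to globins. Of all genes 236 (1.15%) were at least 1.5-fold brighter in 647 on both arrays, and Hbb-y was the 1 member among them. In the brightest 1% of genes, 205 of 206 were brighter in 647 on both arrays, with a median difference of 1.61-fold between the dyes. Of the 295 genes at least as bright as the dimmer Hbb-y probe, 292 were brighter in 647 on both arrays, among them genes of ribosomal proteins such as Rps15 (0.61 and -0.82) and Rps9 (0.81 and -0.84) and the ubiquitin gene Ubb (0.60 and -0.59), named here after their values were seen. Across genes, which are not independent replicates, the ratios of the 2 arrays correlated at Pearson's r = -0.572 over the 5131 genes of the brightest 25% and at 0.389 over the 15377 others. The highest signal was 648231 and 655369 in 647, against 151090 and 129532 in 555. For Hbb-y, averaged over both arrays, 647 exceeded 555 by 2.30-fold through the brighter probe and 2.40-fold through the dimmer one. The mean of a dye-swapped pair cancels a difference that both arrays share, and it leaves whatever differed between them.

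**Figure D3:**
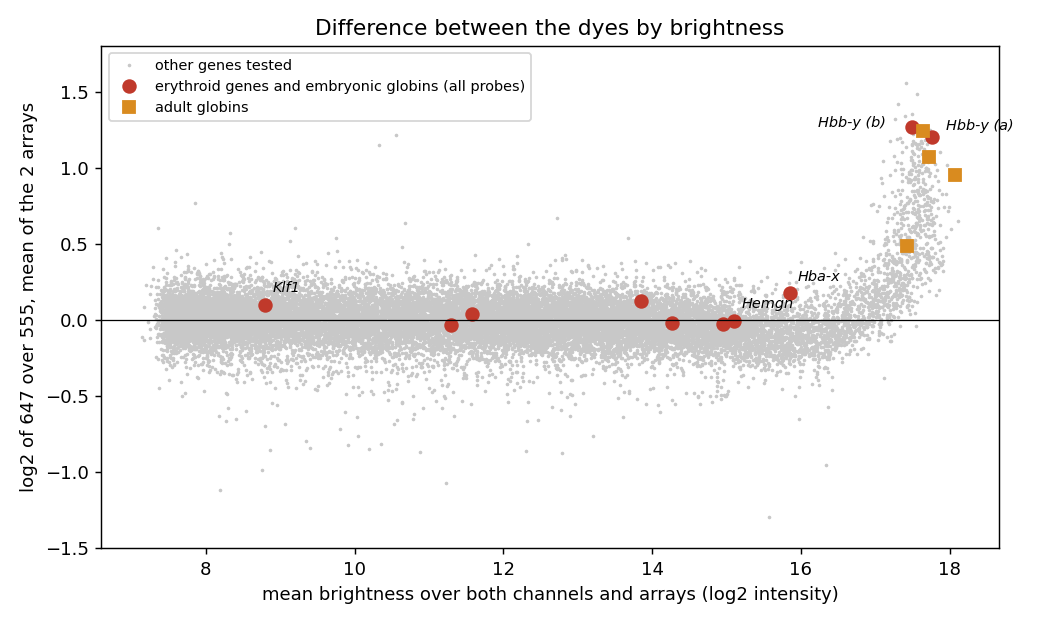
Log2 of the 647 over the 555 channel after loess, averaged over both arrays (vertical axis), against mean brightness (log2 intensity, horizontal axis), with members in red, adult globins in orange and other genes in grey. Both Hbb-y probes (1.20 and 1.27) and the adult globins (0.49 to 1.24) lie in the upturn above a brightness of about 17, and the other members lie between -0.030 and 0.17.

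**Figure D4:**
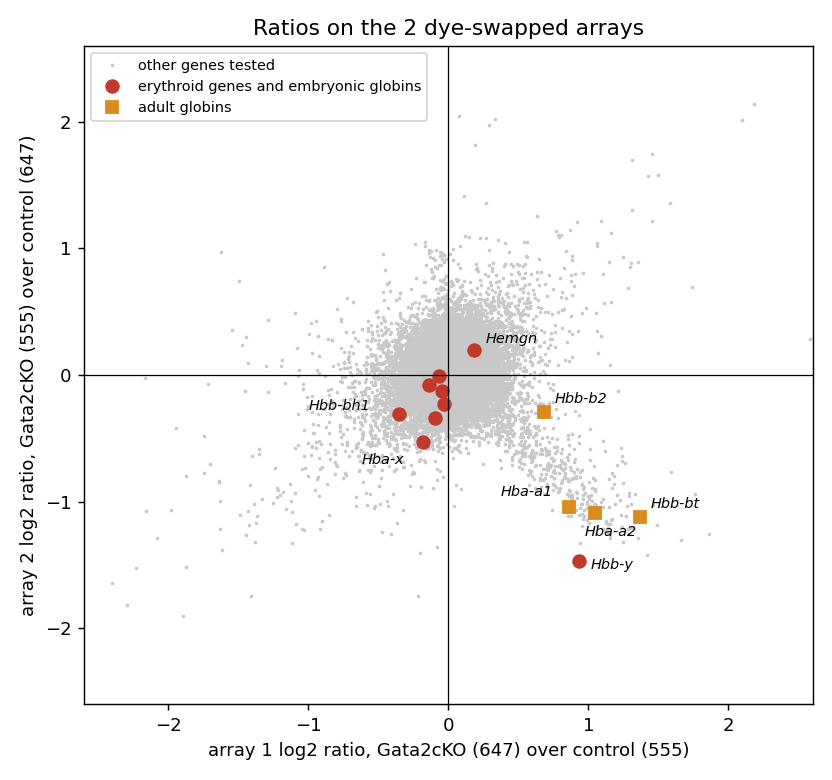
Log2 ratio of Gata2cKO over control on array 1 (horizontal axis) against array 2 (vertical axis), with members in red, adult globins in orange and the other genes in grey, 1 of 20508 genes lying outside the axes. Hbb-y and the 4 adult globins lie at the lower right, where the 647 channel was brighter on both arrays, and 7 members lie at the lower left near the origin.

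Further genes of the red cell programme came from lists chosen with earlier results of these data known. Of 15 genes of the red cell membrane and surface, 12 were tested and 0 passed, with 3 lower and 2 higher on both arrays and a median of -0.0051. Tmod1, which caps the actin filaments of the membrane skeleton, had the lowest value at -0.59 and -0.62 (limma adjusted p = 0.198). Rhd, of the Rh blood group proteins, was at -0.057 and -0.58, and Epb42, which links band 3 to the skeleton, at -0.26 and -0.14. Tmod1 and Epb42 were dim, with 93.7% and 95.8% of the genes tested brighter. In the authors' deposited table Epb42 was higher, at 0.14 and 0.32, while Tmod1 (-1.37 and -0.85) and Rhd (-0.62 and -0.58) were lower.

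All 16 genes of haem synthesis and iron handling were tested and 0 passed. There were 5 lower and 5 higher on both arrays, with a median of -0.045. The transferrin receptor gene Tfrc, through which red cell precursors and other dividing cells take up iron, was at 0.42 and 0.24 (limma adjusted p = 0.594). Hmox1, which breaks haem down, was at -0.27 and -0.29 (limma adjusted p = 0.660), and the haem synthesis gene Cpox at 0.21 and 0.14. Most genes of these 2 lists are used by other cells as well.

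Among 23 regulators and further red cell genes, 20 were tested, 10 were lower and 4 higher on both arrays, and 0 passed, with a median of -0.076. Trim10, a gene of terminal red cell differentiation, was at -0.32 and -0.37 (limma adjusted p = 0.521). Bcl11a, a repressor of embryonic and fetal globin genes, was at 0.37 and 0.13 (limma adjusted p = 0.735), and Jak2, the kinase of the erythropoietin receptor, at 0.026 and 0.51 (limma adjusted p = 0.787). The mean level of the membrane list was 9.31 and 9.11 in Gata2cKO, against 9.32 and 9.25 in control, and that of the regulators 12.06 and 12.02 in Gata2cKO, against 12.13 and 12.05 in control.

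Other cells that travel with blood or could hold red cell RNA were read from their own markers, and their part in the values above was not tested. Of the macrophage list, 11 of 12 genes were tested, 9 of them lower on both arrays, beside 26.2% of all genes. An unadjusted p under 0.05 in the limma fit was found for 6 of the 11, beside 7.17% of all genes. The median ratio was -0.28, with mean levels of 11.35 and 11.38 in Gata2cKO, against 11.68 and 11.66 in control. Csf1r, the receptor of the macrophage growth factor, was at -0.47 and -0.17, and the mannose receptor gene Mrc1 at -0.14 and -0.0073. Mean ratios of the 11 ran from -0.59 to -0.072, the latter for Mrc1. Of platelets and megakaryocytes, 9 of 12 genes were tested, 5 of them lower on both arrays. Their median was -0.14, with mean levels of 9.03 and 9.07 in Gata2cKO against 9.20 and 9.14 in control, and Pf4, a chemokine of platelet granules, at -0.29 and -0.26. Clec1b, a platelet receptor gene, was at -0.26 and -0.13. None of these genes passed the adjusted threshold.

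Endothelial markers, which follow the vessels that hold the blood, were all tested. Of the 12, both arrays put 6 lower and 1 higher, with a median ratio of -0.10 and mean levels of 13.12 and 13.16 in Gata2cKO, against 13.32 and 13.20 in control. Ramp2, whose product modifies the adrenomedullin receptor of vessels, was at -0.24 and 0.12 and the endothelial sialomucin gene Emcn at -0.035 and 0.31. Hepatocyte markers, which would accompany tissue of the blood-forming fetal liver, were tested for 6 of 8 genes, with mean levels of 9.78 and 9.40 in Gata2cKO, against 9.50 and 9.49 in control. Both arrays put 2 of the 6 higher and 1 lower, with a median ratio of 0.13. The fetal plasma protein genes Afp, at 0.70 and 0.081, and Ahsg, at 0.36 and 0.11, were the 2 higher on both arrays, and the transferrin gene Trf, at -0.52 and -0.18, was the 1 lower. Ahsg was dim, with 96.4% of the genes tested brighter. In the authors' deposited table Afp (-0.39 and 0.97) and Ahsg (-0.98 and 0.93) had opposite signs, and Trf was lower in both columns (-0.35 and -0.17). The albumin gene Alb was at 0.83 and -0.30 and the apolipoprotein gene Apoa2 at -0.0026 and 0.0067, and Apoa1 and Fgb were not kept by the filter.

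In the tissue's own lists, mesenchymal and smooth muscle markers had mean levels of 12.17 and 12.09 in Gata2cKO, against 12.35 and 12.44 in control, and urothelial markers 11.76 and 11.87 in Gata2cKO, against 11.36 and 11.84 in control. Of the 8 mesenchymal and smooth muscle genes, both arrays put 5 lower and 2 higher, with a median ratio of -0.33, and 6 had an unadjusted p under 0.05 in the limma fit. The smooth muscle contractile genes were lower on both arrays, with Myh11 at -1.05 and -1.21 (adjusted p = 0.051 in limma), Acta2 at -0.66 and -1.03 and Tagln at -0.27 and -0.71. The mesenchymal transcription factor genes Tbx18, at 0.65 and 0.15, and Tshz3, at 0.61 and 0.44, were the 2 higher on both, and the retinoic acid synthesis gene Aldh1a2 was at -0.016 and 0.61. Of the 10 urothelial genes, both arrays put 5 higher and 0 lower, and 5 had opposite signs. Their median ratio was 0.19, and 2 had an unadjusted p under 0.05 in the limma fit. Among the 5 higher on both, the urothelial regulator Foxa1 was at 0.31 and 0.21 and the uroplakin gene Upk3a at 0.89 and 0.14. No gene of these lists passed the adjusted threshold.

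In the authors' deposited table, the values of several members differed from those above in size or direction, and the median of the 9 was -0.060, against -0.13 from the scanner signals. Hbb-bh1 was at -0.47 and -0.28 on the log2 scale in the columns of arrays 1 and 2, Alas2 at -0.29 and -0.010, and Ahsp at -0.50 and -0.22, and these 3 were lower in both columns, beside 21.3% of all genes. Hbb-y was at 0.053 and -0.15 through the brighter probe and at 0.47 and -0.61 through the dimmer one in the authors' deposited table. Hba-x was at -0.26 and 0.14 there, and Hemgn at -0.038 and 0.56. The sources used here do not say how this table was centred and made, its direction was taken from its correlation with the scanner ratios (r = 0.443 and 0.376 across probes on arrays 1 and 2), and no member passed with it. With the scanner software's own processed signals 6 members were lower on both arrays, beside 26.3% of all genes, and with median centring in place of loess 3 were, beside 20.7%.

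Promoter sequence was available for 6 of the 9 members (Hbb-y, Hba-x, Alas2, Klf1, Epor and Hemgn) from RefSeq on GRCm38.p6, and is given because the study removes a GATA factor and these genes are known targets of GATA factors in red cells. The 250 bases before each start were searched on both strands for 4 motifs, the GATA motif GATAA, the CACCC box bound by Klf1 and related factors, the CCAAT box and the TATA box TATAAA, and none of the matches before these members overlapped. GATAA was found before all 6 members and before 22.6% of the 32851 promoters of the table, and CACCC before 5 members and 52% of promoters. CCAAT was found before 2 members and 33.8% of promoters, and TATAAA before 3 members and 12.4%. The TATAAA matches began 28 bases before the start in Hba-x, 80 in Hemgn and 209 in Alas2. The Alas2 match was on the opposite strand and lies outside the 100 bases shown for that gene. GATAA and CACCC stood together before 5 members, Hemgn lacking CACCC, and before 10.1% of promoters. The stretches below end at the base before the start, on the gene's own strand, with motif matches of either strand in capitals. They lie at chr11:32276480-32276599 (Hba-x, plus), chr7:103853208-103853377 (Hbb-y, minus), chr8:84901862-84901981 (Klf1, plus) and chrX:150547317-150547416 (Alas2, plus).
Hba-x, 120 bases: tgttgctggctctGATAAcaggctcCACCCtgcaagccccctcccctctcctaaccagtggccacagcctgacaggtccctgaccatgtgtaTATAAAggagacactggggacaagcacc
Hbb-y, 170 bases: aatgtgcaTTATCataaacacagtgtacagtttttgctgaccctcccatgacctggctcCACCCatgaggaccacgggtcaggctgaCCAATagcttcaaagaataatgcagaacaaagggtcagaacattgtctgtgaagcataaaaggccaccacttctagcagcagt
Klf1, 120 bases: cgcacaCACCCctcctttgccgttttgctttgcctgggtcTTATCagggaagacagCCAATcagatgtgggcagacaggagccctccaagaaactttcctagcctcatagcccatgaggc
Alas2, 100 bases: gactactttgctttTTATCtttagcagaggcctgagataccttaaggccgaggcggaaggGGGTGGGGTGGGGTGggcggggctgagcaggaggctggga
In Hba-x a CACCC began 198 bases before the start, outside the stretch shown, and within that stretch the GATA motif was followed by a CACCC from 95 bases and the TATA box from 28 bases before the start, and in Hbb-y the GATA motif lay on the opposite strand from 162 bases before the start. In Klf1 and Alas2 it also lay on the opposite strand, from 80 and 86 bases before the start. A match of letters does not show that a factor binds there, and the arrays hold no measure of binding. The 6 genes with GATAA matches had the ratios given above, from -0.35 for Hba-x to 0.19 for Hemgn.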

How the data were processed

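Per the file headers, the authors read both arrays with Agilent Feature Extraction 10.7.3.1, placing probes on mm9. Mean spot signals and median local backgrounds, deposited as intensity with no normalization, were used here. Processed signals and a log10 ratio (red over green) stand beside them, per the file headers. The authors' deposited value table was read as a score, a signed fold with no entry between -1 and 1 and a median of 1 in both columns, and served as an alternative after taking log2 of its size.

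Of 44397 spots per array, 1377 controls were left out, as were 255 and 178 spots with outlier flags. Signals were corrected by normexp (offset 50) and normalized by loess (span 0.3) in limma 3.58.1 and R 4.3.3, and array 2 was turned so that both ratios run Gata2cKO over control. Channel levels were made comparable between the 2 arrays by Aquantile, which does not remove a difference between the dyes. Probes had to be well above background on both arrays in one RNA (25677 kept), and the brightest stood for its gene. Accessions matched to a RefSeq table of GRCm38.p6 named 26412 probes, and 13017 kept the name in the file. Both arrays had a value for 20508 of the 20521 genes tested. Ratios were tested against 0 by lmFit and eBayes, two-sided, with Benjamini-Hochberg adjustment over all genes tested and a threshold of 0.05. There was 1 residual degree of freedom, to which eBayes added a prior of 4.68 with an SD of 0.163, and the number of arrays limits the precision. No dye, sex or block term could be fitted.

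The members, the gene lists and the tests were chosen with earlier results of these data known. The rule named all members, and from each further red cell list the genes past the threshold or else the 3 with the largest mean ratio of the same sign on both arrays. From each other list it named the 2 with the brightest probe. Afp, Ahsg, Alb, Myh11, Acta2, Tbx18 and Tshz3 were named outside that rule, after their values were seen. The value of 1 listed gene is not reported here. The functions were tested on simulated arrays. Alternatives changed the starting signals, the offset, the normalization, the filter, the choice of probe, the variance prior and the arrays used. Figures were drawn with matplotlib 3.10.9 in Python 3.11.15.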

Additional observations from a re-analysis of the deposited data

Results flagged for a closer look

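The globin genes Hbb-y, Hba-a1, Hba-a2 and Hbb-bt had ratios of opposite sign on the female and the male array, each beyond 1.5-fold. The log2 ratio of Gata2cKO over control was 0.93 on the female array and -1.47 on the male array for Hbb-y, 0.86 and -1.04 for Hba-a1, 1.05 and -1.09 for Hba-a2, and 1.37 and -1.12 for Hbb-bt. With 1 array per sex the difference between the sexes was not tested, and dye orientation and sex cannot be told apart. In the brightest 1% of genes, 205 of 206 had the same pattern of signs.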

How the results depend on the processing

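The count of members past the adjusted threshold was 0 in every alternative with a test. At an unadjusted p under 0.05 by limma, 1 member remained with a trended and robust variance prior, against 2. With median centring and with the authors' deposited table it was 0 members. The median of the members kept its sign in all alternatives run. It was -0.060 with the authors' deposited table, against -0.13, and ran from -0.23 to -0.067 with one array left out. It was -0.13 without Hbb-y and Hemgn, a choice made after seeing the data, as was the loess span of 0.1. Single members kept their sign in 9 alternatives that use both arrays, with adjusted p from 0.251 to 1, except Epor, which was at 0.033 with the authors' deposited table. With one array left out, Hbb-y ran from -1.47 to 0.93. The number of genes past the adjusted threshold was 165 with the scanner software's processed signals, 42 with a normexp offset of 10, 54 with no filter on detection, 375 with a trended and robust variance prior and 84 with a loess span of 0.1, against 18. It was 0 with median centring (492 at an unadjusted p under 0.05) and 0 with the authors' deposited table (973). The median of the adult globins was -0.046 with median centring and -0.11 with the deposited table, against 0.053, and ran from -1.06 to 0.95 when one array was left out. The median of the membrane list was 0.00581 with processed signals, 0.00369 with median centring and -0.15 with the deposited table, against -0.0051, and ran from -0.11 to 0.018 with one array. The median of the haem and iron list was -0.045, and ran from -0.035 to 0.0078 with one array. The causes were not tested. The test is itself paired, since each array's ratio pairs its 2 RNAs. No further pairing was possible with 1 group of ratios, and a single array left alone has no test. Signal over background did not limit the members, all of which were well above it, but 2 arrays limit what size of difference could pass.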

Other observations

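Of the red cell genes listed beside the members, 6 had no probe kept by the filter on dim probes (Sptb, Ank1, Rhag, Gfi1b, Trim58 and Gfi1), and Hbb-bs was not on the array under that name. Gata1, which takes over from Gata2 as red cells mature, was kept but dim, at 8.41 and 7.87 in Gata2cKO, against 8.34 and 7.78 in control (log2 intensity), with log2 ratios of 0.069 and 0.088. Tal1 and Lmo2, which join GATA factors in complexes on DNA in red cells and are also made by endothelium, were at -0.14 and 0.18, and at -0.15 and 0.11. The carbonic anhydrase genes Car1 and Car2, whose products are abundant in red cells, were at -0.12 and -0.19, and at -0.13 and -0.21. These genes were named after their values were seen, and none passed the adjusted threshold of limma.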
